A study of Mus musculus with 8 samples.

Results

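The regions described here are the m6A peaks that lie in exons of noncoding RNA genes: 246 of the 17068 peaks (1.44%) deposited for RNA bound to chromatin in E14 cells, a mouse embryonic stem cell line. A peak was a member when its midpoint, read on the strand of the peak, fell in an exon of the longest transcript of a gene without coding sequence and in no exon of the transcript with the longest coding sequence of a coding gene. Pseudogenes, immune receptor segments, microRNA, ribosomal RNA and other very short RNA genes and unclassified (TEC) genes were left out. The 246 peaks fell in 130 noncoding genes, and the 10971 exonic peaks of coding genes in the same lists served for comparison. No measured value entered the choice beyond the peak calls themselves.

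The series held 8 libraries in 4 groups of 2. RNA immunoprecipitated with the Synaptic Systems antibody (SySy ChrMeRIP) was set against its own input (SySy input), and RNA immunoprecipitated with the Abcam antibody (Abcam ChrMeRIP) against the other input (Abcam input). All came from the single line E14, with no genotype or treatment listed, grown on gelatine with serum and LIF, and from RNA that stayed with chromatin after fractionation, which is rich in transcripts still being made. Nothing in the labels says that duplicates came from separate cultures. By the study's methods the SySy libraries and the Abcam libraries were prepared with different kits, whereas the labels name the same kit for all, so antibody and library kit cannot be told apart.

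m6A is the most common internal modification of long RNA polymerase II transcripts. It is written while RNA is being made by a complex around METTL3 and METTL14, mostly where the bases around the adenosine resemble GGACT, read with U in place of T in RNA, and is read by proteins with a YTH domain. In messenger RNA it is known to lie mainly in long internal exons and around the stop codon, the latter a mark that a noncoding transcript does not have. Among long noncoding RNAs, Xist, Malat1 and Neat1 are known carriers, and in Xist the mark and its writer cofactor RBM15 have been studied for their part in X chromosome silencing. Antibodies against m6A also bind m6Am, a related mark beside the cap, so a peak at the very start of a transcript may hold either.

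3 lists were deposited. Cfg1 held peaks called with both antibodies, Cfg2 peaks called with SySy where Abcam signal stayed below the calling limit, and Cfg3 peaks called with Abcam alone. Cfg1 and Cfg2 together are named SySy-called below, and Cfg3 Abcam-only. The lists give position, strand and name, and a score that was 0 for every peak, so a peak is present or absent and has no height. They were called on duplicates together, and no value per library, no depth and no spread between replicates could be given. Intervals and tests below therefore cover counting error only, and peaks of the same gene are not independent of each other. In a bulk sample, fewer cells with a transcript and less of it per cell cannot be told apart, and a gene with no peak may be unmethylated or barely expressed. As to the labelled cell type, 7 of 8 pluripotency genes held an exonic peak (Pou5f1, Sox2, Nanog, Esrrb, Klf4, Zfp42 and Tfcp2l1), and Dppa5a held none. The lists hold no expression values, so this shows only that their transcripts were recovered.

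The intervals that show the range of sequences are printed first, read 5′ to 3′ on the transcribed strand of the GRCm38.p6 assembly (the coordinates of mm10), with every GGACT in capitals. The first group are Cfg1 intervals with more than 1 GGACT, in A630052C17Rik (chr11:29172501-29172636, minus strand, exon 2 of 2), 2310043M15Rik (chr16:93792523-93792655, minus strand, exon 2 of 2), Gm36371 (chr7:6156766-6156898, plus strand, single exon) and B230354K17Rik (chr17:45436433-45436682, plus strand, exon 2 of 3). They were chosen as 4 of the 5 Cfg1 intervals that qualify. The fifth, also in 2310043M15Rik, held 2. In all lists 13 of the 246 members held more than 1.
A630052C17Rik: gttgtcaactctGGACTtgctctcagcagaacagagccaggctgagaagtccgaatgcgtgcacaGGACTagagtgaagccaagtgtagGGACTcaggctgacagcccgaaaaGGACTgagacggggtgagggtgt
2310043M15Rik: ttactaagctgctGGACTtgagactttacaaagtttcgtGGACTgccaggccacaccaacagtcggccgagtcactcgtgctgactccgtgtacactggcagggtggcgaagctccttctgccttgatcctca
Gm36371: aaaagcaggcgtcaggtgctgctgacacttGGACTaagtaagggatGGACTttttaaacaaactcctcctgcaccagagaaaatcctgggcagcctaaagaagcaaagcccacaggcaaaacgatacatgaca
B230354K17Rik: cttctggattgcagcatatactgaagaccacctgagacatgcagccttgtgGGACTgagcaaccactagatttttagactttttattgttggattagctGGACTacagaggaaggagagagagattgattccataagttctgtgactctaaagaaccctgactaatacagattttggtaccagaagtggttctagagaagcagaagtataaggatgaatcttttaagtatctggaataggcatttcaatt
A630052C17Rik carried 4 copies in 136 nt, and each of the other 3 carried 2. Of the B230354K17Rik interval 79.6% was soft-masked as repeat in the assembly, whereas none of the other 3 was masked.

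The second group are GGACT-bearing intervals of well-known noncoding RNAs with several peaks, 1 from each, and are not all such intervals. They are from the imprinted antisense RNA Kcnq1ot1 (Cfg1, chr7:143258899-143259126, minus strand, single exon), Tug1 (Cfg1, chr11:3646720-3646924, minus strand, exon 1 of 2) and Malat1 (Cfg3, chr19:5801124-5801373, minus strand, single exon).
Kcnq1ot1: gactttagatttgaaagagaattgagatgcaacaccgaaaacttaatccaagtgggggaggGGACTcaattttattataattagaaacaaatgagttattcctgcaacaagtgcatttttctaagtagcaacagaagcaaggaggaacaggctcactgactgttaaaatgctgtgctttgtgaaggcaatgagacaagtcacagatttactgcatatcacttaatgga
Tug1: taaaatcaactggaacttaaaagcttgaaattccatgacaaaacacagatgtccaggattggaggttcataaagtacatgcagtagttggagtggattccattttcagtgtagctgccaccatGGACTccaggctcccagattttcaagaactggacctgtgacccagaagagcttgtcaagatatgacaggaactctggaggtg
Malat1: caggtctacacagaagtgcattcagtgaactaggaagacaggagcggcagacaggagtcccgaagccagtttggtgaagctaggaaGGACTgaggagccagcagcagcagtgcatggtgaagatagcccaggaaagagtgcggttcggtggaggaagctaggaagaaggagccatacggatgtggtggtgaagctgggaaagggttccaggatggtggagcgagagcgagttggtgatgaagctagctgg
Each held 1 GGACT. In Malat1 this was 1 of 5 peaks, in Tug1 1 of 6, and in Kcnq1ot1 4 of 10 peaks held the motif.

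The member with the most copies was in Cfg3, in the long intergenic RNA Gm33027 (chr7:129400853-129401102, minus strand, exon 2 of 2), and is shown because its 5 copies are not independent. When the interval was shifted against itself by 81 nt, 142 of 169 positions (84.0%) were equal, so the motif recurs with a tandem repeat. It was chosen after its values were seen.
Gm33027: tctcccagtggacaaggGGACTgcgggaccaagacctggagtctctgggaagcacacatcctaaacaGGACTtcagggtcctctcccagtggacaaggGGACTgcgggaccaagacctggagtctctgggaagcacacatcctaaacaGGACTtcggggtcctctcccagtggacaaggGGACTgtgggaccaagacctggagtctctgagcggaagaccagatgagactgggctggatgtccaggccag
For contrast, the Cfg1 interval of Xist nearest its 5′ end (chrX:103482258-103482428, minus strand, exon 1 of 7) had no GGACT, and the capitals mark its single GGAC.
Xist: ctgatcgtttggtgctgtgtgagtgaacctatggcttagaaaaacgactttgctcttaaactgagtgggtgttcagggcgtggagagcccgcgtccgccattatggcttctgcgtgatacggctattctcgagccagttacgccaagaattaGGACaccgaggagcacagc

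Members made up a small share of exonic peaks in every list. Cfg1 held 90 members among 4579 exonic peaks (1.97%), Cfg2 held 96 among 4359 (2.20%) and Cfg3 held 60 among 2279 (2.63%). No difference between lists passed the test. Cfg1 minus Cfg3 was -0.67 points (-1.49 to 0.065), with an adjusted p of 0.14 in the two-sided Fisher's exact test, and the 2 other pairs gave adjusted p-values of 0.60 and 0.41 in the same Fisher's exact test. Under other settings Cfg1 minus Cfg3 moved both ways. It was -0.82 points without members in exons of RefSeq messenger RNAs (adjusted p = 0.049, Fisher's exact test), and -0.37 points without Gm42418 and Gm26917 (adjusted p = 0.50). It was -0.32 points with long gene types only (Fisher's exact test, adjusted p = 0.57) and likewise without members inside coding genes (adjusted p = 0.55). All p-values were adjusted by the Benjamini-Hochberg method over the 17 tests reported, of which 5 passed 0.05. An exonic peak was found in 130 of 13680 annotated noncoding genes (0.950%) and in 4398 of 21951 coding genes, counts that depend on how many of these genes the cells transcribe, which was not measured in these lists.

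Peaks of noncoding genes were mostly exonic where SySy had called them, and mostly intronic where Abcam alone had, and the same order held for coding genes. In Cfg1, 90 of 114 peaks placed in a noncoding gene outside any coding gene's exons were exonic (78.9%, 95% interval 70.6 to 85.4). In Cfg2 it was 96 of 145 (66.2%, 58.2 to 73.4), and in Cfg3 60 of 144 (41.7%, 33.9 to 49.8). Among peaks placed in the exons or introns of coding genes, 91.7% of 4896 in Cfg1, 86.2% of 4948 in Cfg2 and 41% of 5417 in Cfg3 were exonic. The exonic count includes members inside coding genes and the intronic count does not, and no test was run on these shares.

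By gene type, long intergenic RNAs (lincRNA) held 113 members, antisense RNAs 47, processed transcripts 42 and RNAs from bidirectional promoters 26. The bidirectional promoter RNAs start beside a coding gene and run the other way. 10 of 190 such genes held a member (5.26%, 95% interval 2.88 to 9.42), compared with 64 of 5854 lincRNA genes (1.09%, 0.857 to 1.39). The share was 7.84% of 51 scaRNA genes (3.09 to 18.5), 2.03% for processed transcripts, 1.83% for sense-intronic and 0.845% for antisense genes. These shares were not tested, and how many genes of each type the cells transcribe was not measured. Peaks of bidirectional promoter RNAs were 15 in Cfg1 and 11 in Cfg2, with none in Cfg3. All members together were 186 SySy-called and 60 Abcam-only. In all, 62 members (25.2%) lay in a gene that starts within 1000 nt of a coding gene's start on the other strand, 54 SySy-called and 8 Abcam-only. Such pairs were D430020J02Rik with Ncapg2 (a condensin subunit gene), Tug1 with Morc2a, A630052C17Rik with Ppp4r3b, B230354K17Rik with Cdc5l (a spliceosome component) and 2810030D12Rik with Grtp1. The 25.2% counts members, and genes such as D430020J02Rik (7 members) and Tug1 (6) add several each. How many of all annotated noncoding genes have such a start was not counted, so the share has no background beside it.

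**Figure D1:**
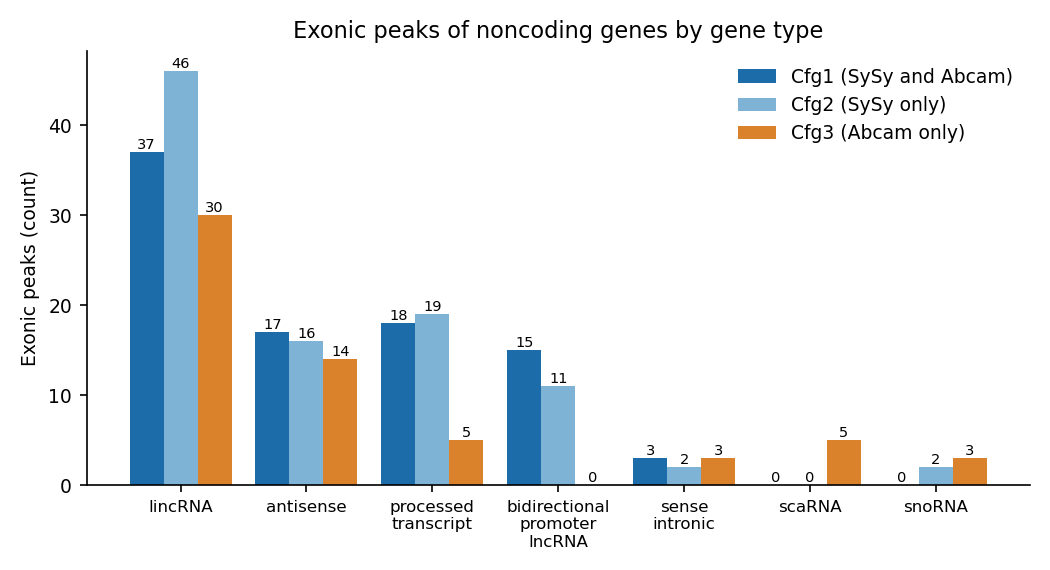
Number of exonic peaks of noncoding genes (vertical axis, count) by annotated gene type (horizontal axis) in Cfg1, Cfg2 and Cfg3. Bidirectional promoter RNAs have 15, 11 and 0 peaks in these lists, and scaRNA genes have 5, all in Cfg3.

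Of the 130 genes 74 held a single member (56.9%) and 30 held 2, whereas 26 held 3 or more and together 112 of the 246 members (45.5%). Coding genes held more exonic peaks each, a mean of 1.89 for noncoding and 2.49 for coding genes with any, and 1928 of 4398 coding genes held a single one (43.8%). These counts were not tested, and noncoding transcripts were shorter. Because broad regions had been divided between summits, neighbouring members can be pieces of the same call: the 246 members came from 179 called regions, 48 of which gave more than 1 member and up to 7. Another member of the same gene lay within 1000 nt of 68 of 90 Cfg1 members (75.6%), 56 of 96 Cfg2 members (58.3%) and 30 of 60 Cfg3 members (50.0%). Members of both SySy-called and Abcam-only lists were in 13 genes, which are 12.9% of the 101 genes with SySy-called and 31% of the 42 with Abcam-only members. Among coding genes 918 held both, 23.8% of 3865 and 63.3% of 1451, and the difference was not tested. The 13 were 1700020I14Rik, 2810429I04Rik, 4632415L05Rik, 9230114K14Rik, B130055M24Rik, Eprn, Gm17586, Kcnq1ot1, Meg3, Neat1, Trerf1, Tsix and Tug1. All 13 are noncoding by the annotation used, where Trerf1 is a processed transcript of 19 exons. RefSeq places some members in messenger RNA exons, as given below.

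**Figure D2:**
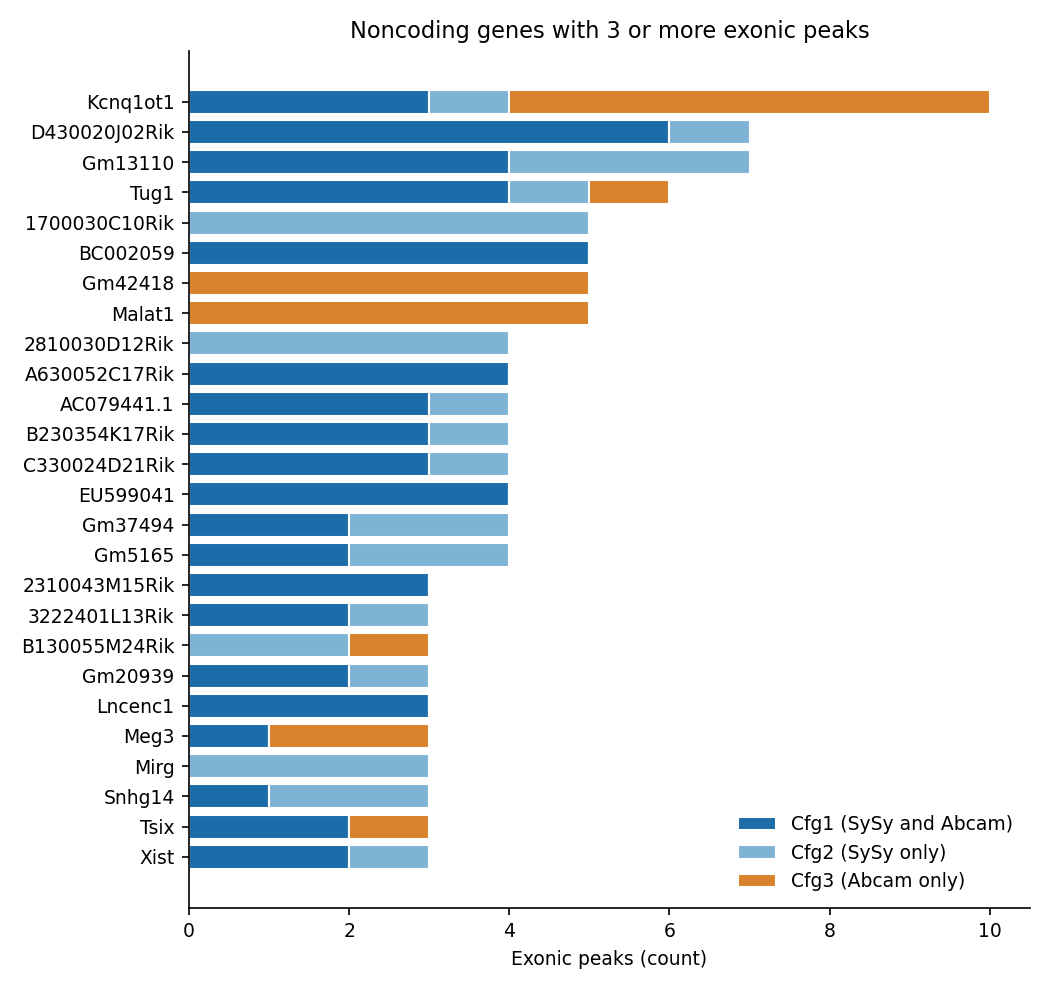
Number of exonic peaks (horizontal axis, count) in each of the 26 noncoding genes with 3 or more, divided by list. Kcnq1ot1 has 10 peaks, 6 of them Abcam-only, while Malat1 and Gm42418 have 5 each, all Abcam-only.

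Among the X-inactivation RNAs, Xist and Tsix held 6 members, and Jpx, Ftx and Firre held none. Xist is the RNA that coats and silences the inactive X, and Tsix is its antisense repressor. The lists do not show whether any X was inactive in these cells. Xist (chrX, minus strand, 17946 nt spliced) had adjoining Cfg1 peaks at 911 nt and 1073 nt from its start, in exon 1, and a Cfg2 peak at 11961 nt, in exon 7, the last. The intervals at 911 and 11961 nt held 1 and 3 GGAC, that at 1073 nt held none, and none of the 3 held GGACT. Tsix (plus strand, 4306 nt) had Cfg1 peaks at 3508 and 3719 nt and a Cfg3 peak at 1724 nt, all in its last exon. The Tsix Cfg3 peak (chrX:103482259-103482493) and the Xist Cfg1 peak printed above share 170 nt on opposite strands. They were the only members overlapped by a peak on the other strand, and 3 of the 10971 coding exonic peaks were. By the study's methods, strand was assigned to each peak after calling. Whether the Xist and Tsix RNAs both carry a mark there was not tested. 2 Cfg2 peaks lay within the annotated bounds of Firre but in no exon of its longest transcript.

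Imprinted noncoding RNAs, which are made from 1 parental allele and lie in clusters with imprinted coding genes, held 20 members in 5 of 10 genes. Kcnq1ot1, the paternally expressed RNA that runs antisense through Kcnq1, had the most of any gene. Its annotated transcript is a single exon of 93092 nt (chr7:143203458-143296549, minus strand). Its 4 SySy-called peaks were contiguous, with midpoints at 37536, 37724, 37854 and 37976 nt. Of its 6 Abcam-only peaks, 1 lay just downstream at 38305 nt, 2 near the start at 1266 and 1414 nt, 2 at 8804 and 8978 nt and 1 at 71118 nt. GGACT was in 1 of the 4 SySy-called and in 3 of the 6 Abcam-only peaks, and the interval at 71118 nt was wholly soft-masked repeat. The Cfg1 peaks, called with both antibodies, thus fell in 1 stretch of the transcript, and the peaks nearest its start were Abcam-only.

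The maternally expressed RNAs of the Dlk1-Dio3 cluster came next. Meg3 (14548 nt) had a Cfg1 peak at 14427 nt and Cfg3 peaks at 2821 and 14250 nt, so 2 of its 3 peaks lay close to its 3′ end. None held GGACT, although the Cfg3 peak at 14250 nt held 4 GGAC. Mirg, a microRNA-containing transcript of the same cluster, had 3 adjoining Cfg2 peaks in exon 4 of 12, at 1920, 2056 and 2216 nt, and 1 held GGACT. Rian, which carries small nucleolar RNAs, held no member, and a Cfg1 and a Cfg3 peak lay within its bounds but outside its longest transcript's exons. Snhg14, the long host transcript antisense to Ube3a, had a Cfg1 peak at 2401 nt and Cfg2 peaks at 1968 and 2066 nt, and Nespas, antisense to Nesp at the Gnas locus, had 1 Cfg2 peak at 146 nt. H19, Airn, Peg13 and Nctc1 held none.

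Of the abundant or nuclear RNAs, 5 of 9 annotated as noncoding held 16 members. Malat1, a nuclear speckle RNA, held 5 peaks, all Abcam-only, at 69, 179, 425, 789 and 1423 nt of its single 6983-nt exon. Neat1, the scaffold of paraspeckles, resembled it in having a Cfg3 peak at 75 nt, and also had a Cfg1 peak at 1682 nt of its 20771-nt transcript. Tug1 held 6 peaks, with Cfg1 peaks at 507, 714, 1407 and 5994 nt, a Cfg2 peak at 5224 nt and a Cfg3 peak at 902 nt. Tug1 and Kcnq1ot1 were the only genes with members in all 3 lists. 1700020I14Rik, the mouse form of the RNA known as Cyrano (Oip5os1 in RefSeq), had a Cfg1 peak at 634 nt, whose sequence has 1 near-identical copy elsewhere, and a Cfg3 peak at 1258 nt, and Pvt1, a neighbour of Myc, had a Cfg2 peak at 229 nt. The other 4 of the 9 held none among the peaks analysed here.

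**Figure D3:**
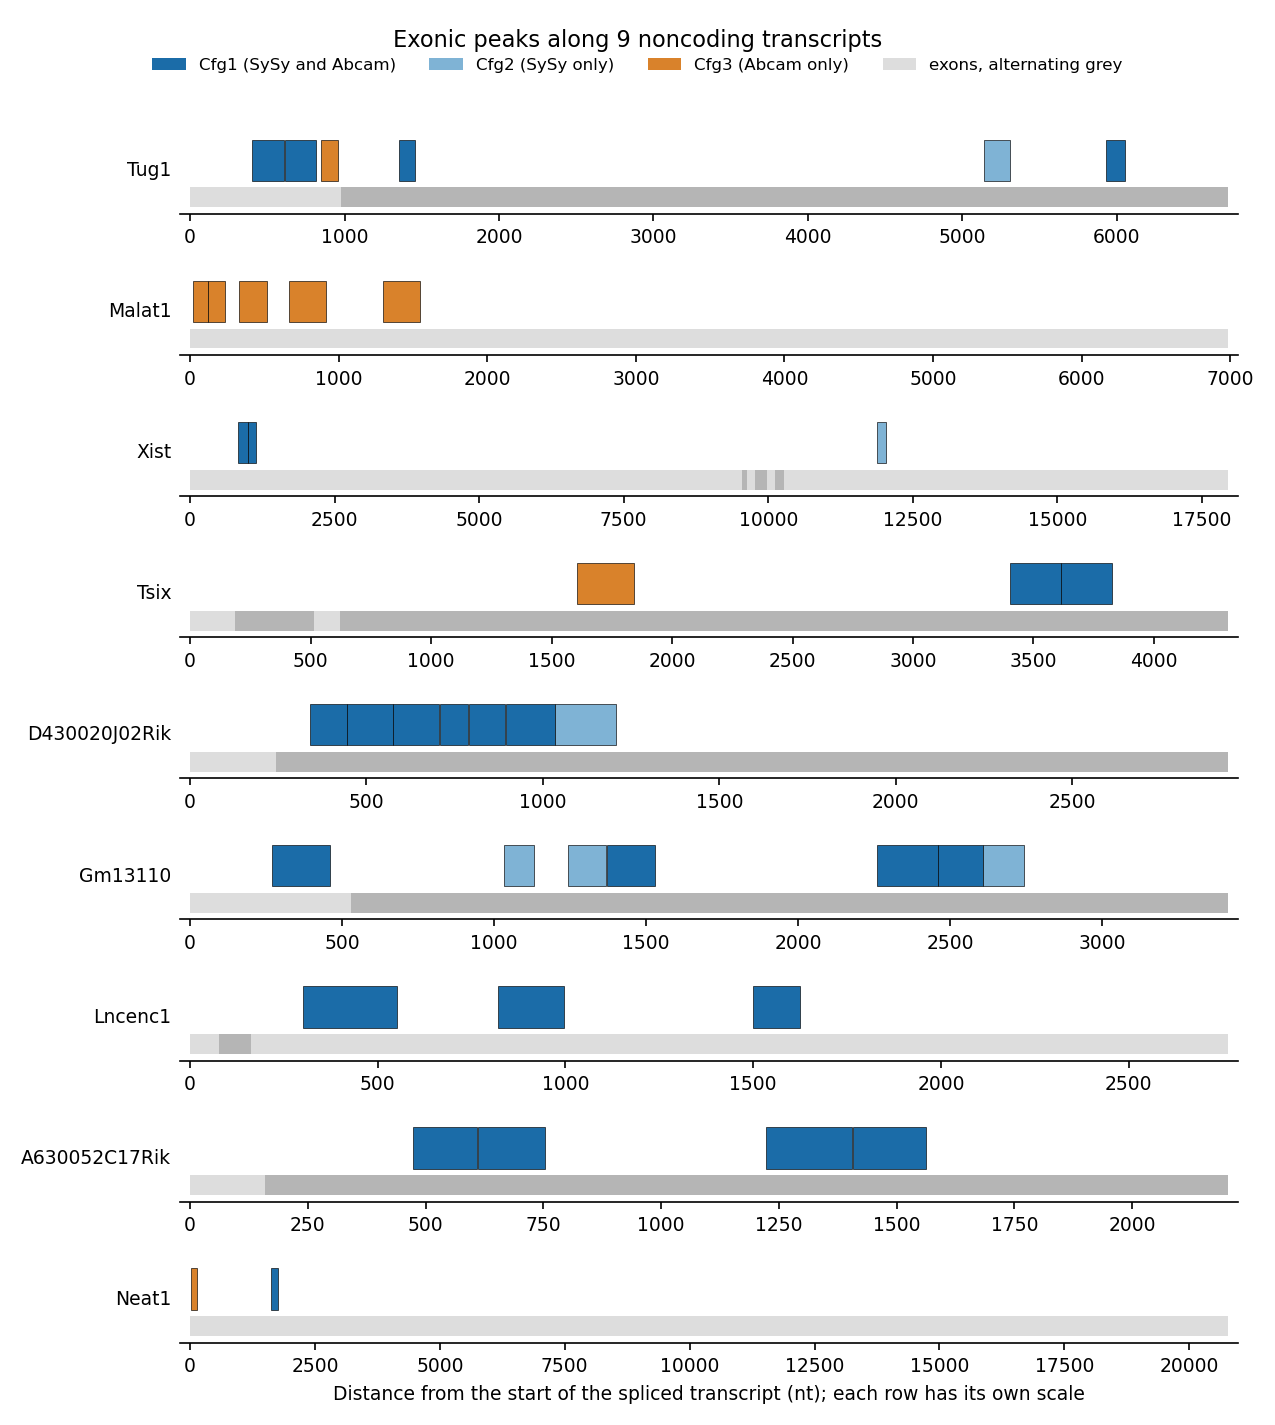
Exonic peaks drawn to scale along the spliced transcripts of 9 noncoding genes (horizontal axes, distance from the transcript start in nt, with a scale for each gene), coloured by list above the exons in alternating grey. The midpoints of the 5 Malat1 peaks lie between 69 and 1423 nt, the Xist Cfg1 pair at 911 and 1073 nt, and the 7 peaks of D430020J02Rik form an unbroken row.

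Stem cell RNAs held 7 members, in 4 of 42 genes annotated as noncoding. Lncenc1, which is highly expressed in naive embryonic stem cells, had 3 Cfg1 peaks at 425, 909 and 1563 nt in its last exon. Platr7 had a Cfg1 peak at 687 nt, Platr20 a Cfg2 peak at 690 nt and Platr22 adjoining Cfg2 peaks at 821 and 931 nt, and in all 3 the peak exon was the last. The Platr genes are a set of transcripts associated with pluripotency. None of the 7 was Abcam-only. Panct2, another pluripotency-associated noncoding transcript, was outside the list and had Cfg1 peaks at 647 and 889 nt. Tunar is annotated as coding. Of the other 38 genes, 7 had peaks within their bounds but not in an exon of the longest transcript, from 1 in Lncpint and in Platr8 to 8 in Platr14. Only 1 of the 8 in Platr14, and 1 of the 4 in Sox2ot, was placed in an intron of that gene. Peaks within such bounds therefore need not belong to the RNA named. Small nucleolar RNA host genes held 4 members, 3 in Snhg14 and 1 in Snhg20 (Cfg2, at 137 nt, with a GGACT), and the other 12 of the 14 host genes held none. The 10 microRNA host genes held none. Peaks that were not members lay within the bounds of Snhg17 (2 in Cfg3) and of the microRNA host gene Mir124a-1hg (1 in Cfg2 and 1 in Cfg3).

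Small structured RNAs held 10 members, 2 in Cfg2 and 8 in Cfg3, in 9 of 3525 genes. scaRNAs guide modification of spliceosomal RNA in Cajal bodies, and most snoRNAs, though not U3, do so for ribosomal RNA in the nucleolus. The Cfg3 genes were the scaRNA genes Gm22009 (2 peaks), Gm23119, Gm25395 and Scarna2 and the snoRNA genes Gm23547, Gm24339 and Rnu3a, a U3 gene. In Cfg2, Snora64, inside Rps2, held 1. 7 of the 10 lay within a coding gene on the same strand, where the small RNA and the intron around it cannot be told apart. No snRNA gene, out of 1383, and no misc_RNA gene, out of 562, held a member.

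The other genes with 3 or more members are less well known, and most carry only a clone or prediction name. D430020J02Rik (chr12, minus strand, 2941 nt) had 6 Cfg1 peaks and 1 Cfg2 peak, unbroken from 392 to 1121 nt in its last exon. None held GGACT and 3 held a GGAC. Gm13110 had 4 Cfg1 and 3 Cfg2 peaks between 365 and 2677 nt, with GGACT in 1. The rows of A630052C17Rik (4 Cfg1 peaks, 542 to 1485 nt), C330024D21Rik (3 Cfg1 and 1 Cfg2, 1429 to 1940 nt), 2310043M15Rik (3 Cfg1, 730 to 1126 nt), 2810030D12Rik (4 Cfg2, 236 to 631 nt) and B230354K17Rik (3 Cfg1 and 1 Cfg2, 851 to 3253 nt) followed. B130055M24Rik had 2 Cfg2 peaks and 1 Cfg3 peak, 3222401L13Rik 2 Cfg1 and 1 Cfg2, and 1700030C10Rik 5 Cfg2 peaks. With exactly 2 Cfg1 peaks and no others stood Panct2, Gm38509, 4632427E13Rik and Gm11611, the last lying inside Srcin1.

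Part of the members sit where the annotation itself is unsettled. RefSeq places 23 of the 246 (9.35%) in an exon of a curated messenger RNA, in 10 genes, and 6 more in an exon of a predicted messenger RNA only. These include all 4 peaks of EU599041, all 4 of Gm5165, all 3 of Gm20939 and all 4 of Gm37494 (RefSeq Gm33989), which rank among the genes with most members. The single peak of Zswim6, in Cfg1, was also in a curated messenger RNA exon. RefSeq has 158 members (64.2%) in noncoding exons only and 59 (24.0%) in no exon. A coding gene covered 23 members on the same strand and 37 on the opposite strand, in 18 genes. 24 members (9.76%) had near-identical copies elsewhere in the assembly, so some of their reads may match several places, which was not measured. For 3 of the 1700030C10Rik peaks 6 to 10 sites matched, the peak's own included, and for a Cfg2 peak of 2810429I04Rik 48 did. The 5 Cfg3 peaks of Gm42418 lie in what RefSeq names Rn18s-rs5, a ribosomal RNA related sequence, and the 2 Cfg3 peaks of the neighbouring Gm26917 (chr17:39844841-39844954 and chr17:39844956-39845163, plus strand) had 66.7% and 74.0% GC. Whether these 7 come from ribosomal RNA was not tested.

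Motifs were searched on the transcribed strand of each interval, and the shorter motif lies within the longer. In the intervals, GGACT was found in 24 of 90 Cfg1 members (26.7%, 95% Wilson interval 18.6 to 36.6), set against 1695 of 4489 coding exonic peaks (37.8%, 36.4 to 39.2). The difference of -11.1 points (-19.3 to -1.04) did not pass (Fisher's exact test, adjusted p = 0.077). In Cfg2 it was 29 of 96 members (30.2%) and 1331 of 4263 coding peaks (31.2%), a difference of -1.01 points (-9.41 to 8.88) with an adjusted p of 0.97 in Fisher's exact test. In Cfg3 it was 8 of 60 members (13.3%) and 399 of 2219 coding peaks (18.0%), a difference of -4.65 points (-11.3 to 6.29) with an adjusted p of 0.60 in Fisher's exact test. With the shorter motif GGAC, 55 of 90 Cfg1 members (61.1%) and 3368 coding peaks held it (-13.9 points, Fisher's exact test, adjusted p = 0.013), and in Cfg3 36.7% of members and 54.7% of coding peaks did (-18.0 points, Fisher's exact test, adjusted p = 0.017). Counting either GGACT or GAACT, the Cfg1 difference was -16.6 points (Fisher's exact test, adjusted p = 0.0084). The call in Cfg1 and Cfg3 therefore depends on the letters searched.

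Member intervals were also narrower than coding ones in Cfg1, which bears on any motif count. The median width was 176 nt for Cfg1 members and 200 nt for Cfg1 coding peaks, 150 and 161 nt in Cfg2, and 144 and 135 nt in Cfg3. Median GC content was 46.6% for members and 50.8% for coding peaks in Cfg1, 49.9% and 52.4% in Cfg2, and 50.3% and 50.5% in Cfg3. In windows of fixed width around the midpoint the Cfg1 difference in GGACT was smaller, at -5.99 points (-14.1 to 4.05) with an adjusted p of 0.41 in Fisher's exact test.

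Among members alone, SySy-called peaks held GGACT in 53 of 186 (28.5%, 22.5 to 35.4) and Abcam-only peaks in 8 of 60 (13.3%, 6.91 to 24.2). The difference of 15.2 points (2.78 to 24.6) did not pass (Fisher's exact test, adjusted p = 0.059). By the same test it passed when each gene gave only its widest peak (38 of 101 and 6 of 42, 23.3 points, Fisher's exact test, adjusted p = 0.019), without Kcnq1ot1 (19.3 points, adjusted p = 0.012) and with GGAC (24.1 points, adjusted p = 0.0055). It was smaller and did not pass by Fisher's exact test with all transcripts of noncoding genes (9.87 points, adjusted p = 0.20), without members inside coding genes (11.3 points, adjusted p = 0.24), with GGACT or GAACT (10.8 points, adjusted p = 0.29) and with long gene types only (12.9 points, adjusted p = 0.12). In windows of fixed width it was 12.9 points (55 of 186 and 10 of 60, Fisher's exact test, adjusted p = 0.13). Taking the widest peak of each gene favours wide intervals, so that setting is not free of interval width. In 61 members with GGACT, the copy nearest the midpoint lay a median of 32.5 nt from it. No value for coding peaks or for random positions was computed beside it, so it does not show that the motif is centred.

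Members lay close to the transcript start more often than coding exonic peaks did. Within 200 nt of the start, in spliced distance, were 12 of 60 Abcam-only members (95% interval of the share 11.8 to 31.8%) and 29 of 2219 coding peaks (1.31%, 0.912 to 1.87). The difference was 18.7 points (10.5 to 30.5) with an adjusted p of 1.3e-09 in Fisher's exact test. 7 of the 12 were in scaRNA and snoRNA genes, some of them shorter than 200 nt, where any position counts as near the start. The other 5 were in Malat1 (69 and 179 nt), Neat1 (75 nt), Gm33472 and Gm44983. Without the small RNA genes the share was 5 of 52 and the difference 8.31 points (2.84 to 19.3) with an adjusted p of 0.0037 in Fisher's exact test.

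Of SySy-called members 11 of 186 were near the start (5.91%, 3.33 to 10.3) and of coding peaks 209 of 8752 (2.39%, 2.09 to 2.73), a difference of 3.53 points (0.924 to 7.90) with an adjusted p of 0.021 in Fisher's exact test. Of the 11, 2 were in small RNA genes, Snora64 among them, and without small RNA genes the difference was 2.50 points and did not pass (Fisher's exact test, adjusted p = 0.098). The other 9 were in 4632404H12Rik and Gm15513 (Cfg1) and in Snhg20, 1700030C10Rik, Gm49503, AC166172.1 (2 peaks), Gm13587 and Nespas (Cfg2). The median transcript length was 2711 nt for SySy-called members and 4652 nt for their coding peaks. Among transcripts of 5000 nt or less the SySy-called difference was 4.41 points (Fisher's exact test, adjusted p = 0.017). The Abcam-only difference was 19.8 points there, with 9 of 41 members near the start. That limit left out Malat1 and Neat1 and kept all small RNA genes, so it does not remove their part in the Abcam-only difference.

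**Figure D4:**
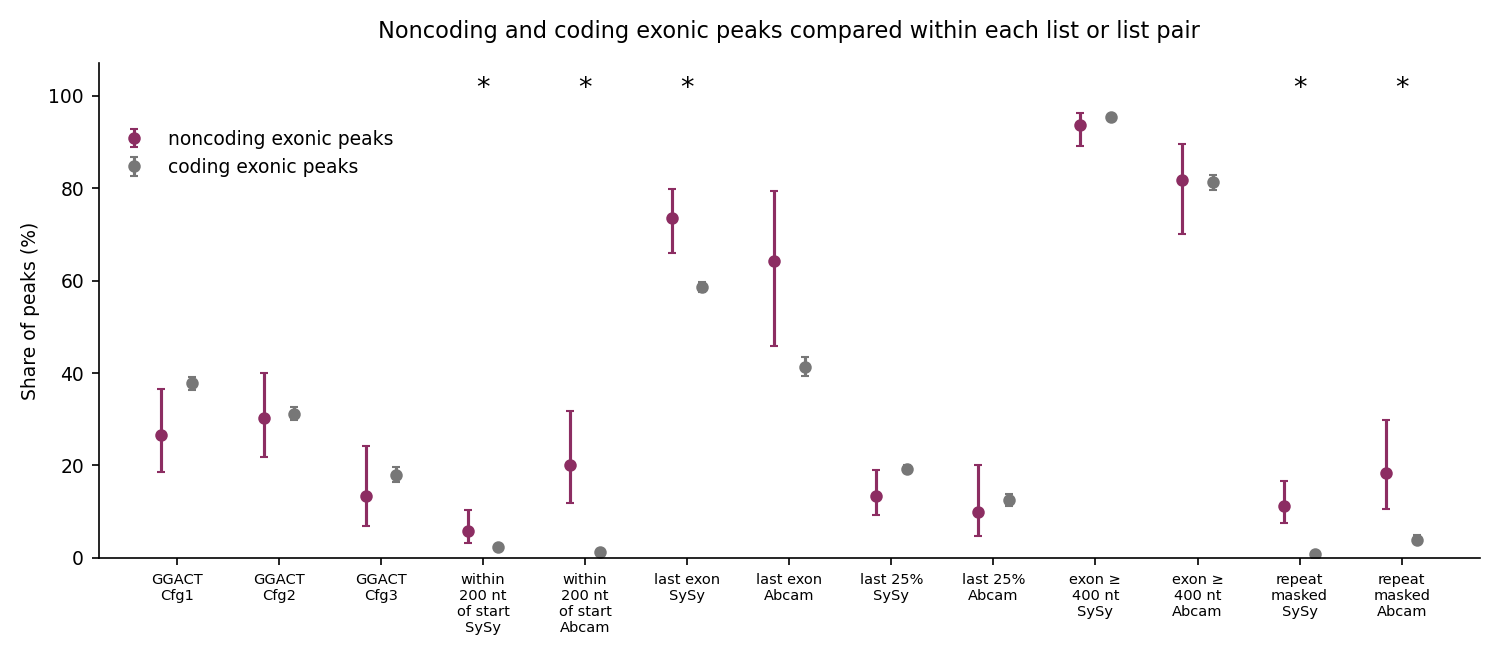
Share of peaks (vertical axis, percent) with each feature among noncoding and coding exonic peaks, within the list or list pair named on the horizontal axis. Points are shares, bars are 95% Wilson intervals for counting error, and an asterisk marks the 5 comparisons that passed an adjusted p of 0.05.

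At the other end of the transcript, 111 SySy-called members of multi-exon transcripts were in the last exon (73.5%, 66.0 to 79.9), set against 58.6% of their coding peaks. The difference was 14.9 points (7.28 to 21.4) with an adjusted p of 9.3e-04 in Fisher's exact test. By Fisher's exact test it was 1.45 points with 1 peak per gene (adjusted p = 0.96) and 7.97 points among transcripts of 5000 nt or less (adjusted p = 0.14). Genes with several peaks in the same last exon were D430020J02Rik, Lncenc1 and Tsix, among others. For Abcam-only members it was 18 of 28 (64.3%) and 41.4% of coding peaks (a difference of 22.9 points, 4.30 to 38.0, with an adjusted p of 0.055 in Fisher's exact test). Transcripts of SySy-called members had a median of 2 exons and those of coding peaks 10.

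Being in the last exon did not mean being near the 3′ end. The last 25% of the transcript held 25 of 186 SySy-called members (13.4%, 9.27 to 19.1) and 19.2% of coding peaks, a difference of -5.78 points (-10.0 to -0.072) that did not pass (Fisher's exact test, adjusted p = 0.090). It held 6 of 60 Abcam-only members (10.0%) and 12.5% of coding peaks (a difference of -2.48 points, -8.01 to 7.75, with an adjusted p of 0.79 in Fisher's exact test). By 10% bins of the transcript, SySy-called members were between 7.53% and 14.5% in each of the first 9 bins and 2.15% in the last. The median position was 41.3% of the length from the start for SySy-called members and 45.7% for coding peaks, and 35.4% for Abcam-only members and 38.8% for coding peaks.

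**Figure D5:**
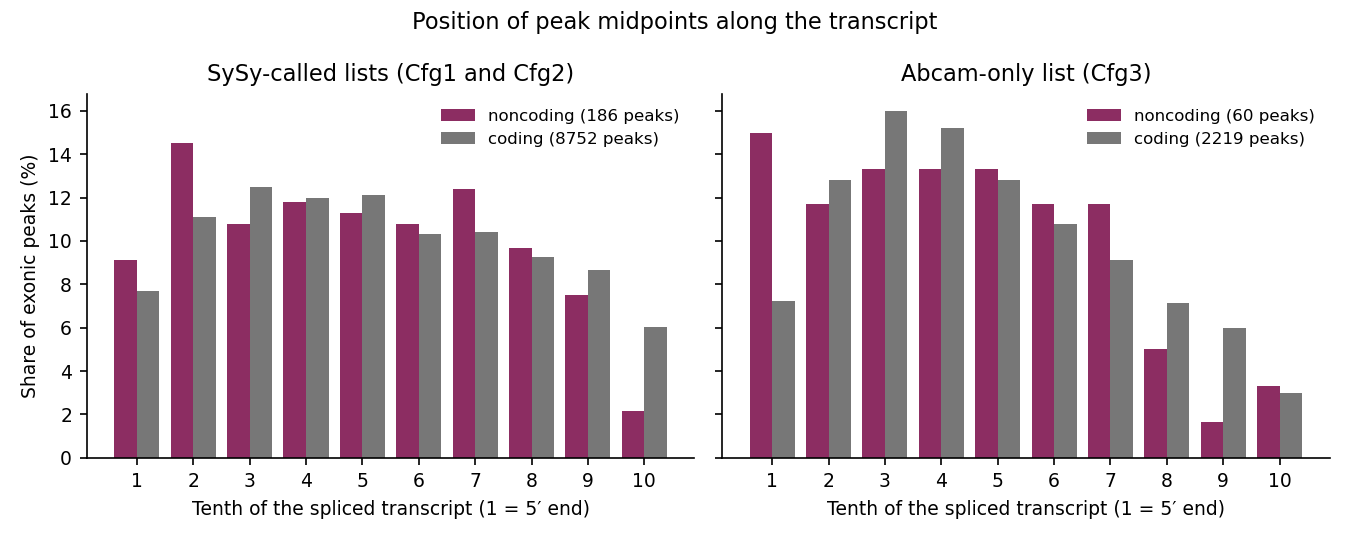
Share of exonic peaks (vertical axis, percent) by 10% bin of the spliced transcript (horizontal axis, 1 is the 5′ end) for noncoding and coding genes. The first bin holds 15.0% of Abcam-only noncoding peaks and 7.21% of coding ones, and the last bin 2.15% of SySy-called noncoding peaks and 6.03% of coding ones.

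No difference in the share of long exons was detectable between members and coding peaks. The exon was 400 nt or longer for 174 of 186 SySy-called members (93.5%) and 95.3% of coding peaks (a difference of -1.77 points, -6.27 to 0.995, with an adjusted p of 0.41 in Fisher's exact test). For Abcam-only members it was 49 of 60 (81.7%), and 81.2% of coding peaks (a difference of 0.41 points, -11.3 to 8.37, with an adjusted p of 1.0 in Fisher's exact test). Of 246 members, 129 (52.4%) lay in a last exon, 67 (27.2%) in a single-exon transcript, 30 (12.2%) in a first exon and 20 (8.13%) in an internal one. Single-exon transcripts held 32 of 60 Cfg3 members (53.3%), 24 of 96 in Cfg2 and 11 of 90 in Cfg1 (12.2%). The Cfg3 count rests on few genes, with 8 members in small structured RNA genes, 6 in Kcnq1ot1, 5 in Malat1, 5 in Gm42418 and 2 in Gm26917. These shares were not tested.

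Members lay in repeat sequence more often than coding exonic peaks did. The masked share of noncoding and coding exons as a whole was not computed. Whether members differ from the rest of their exons was therefore not tested. An interval that was at least 50% soft-masked was found in 21 of 186 SySy-called members (11.3%, 7.50 to 16.6) and 68 of 8752 coding peaks (0.777%, 0.613 to 0.984), a difference of 10.5 points (6.72 to 15.9) with an adjusted p of 1.0e-15 in Fisher's exact test. It was found in 11 of 60 Abcam-only members (18.3%, 10.6 to 29.9) and 88 of 2219 coding peaks (3.97%, 3.23 to 4.86), a difference of 14.4 points (6.54 to 26.0) with an adjusted p of 2.0e-04 in Fisher's exact test. The SySy-called ones lay in 12 genes, with 4 of the 5 peaks of BC002059, all 4 of AC079441.1 and 3 of the 4 of Gm5165. The Abcam-only ones lay in 10 genes, among them Eprn, a regulator of the exit from naive pluripotency whose Cfg1 and Cfg3 peaks were both masked. At a limit of 10% masked, 24 of 60 Abcam-only members and 892 of 2219 coding peaks qualified, a difference of -0.20 points (Fisher's exact test, adjusted p = 1.0), so the Abcam-only difference depends on the limit. The size of the SySy-called difference does too, with 19.1 points at 10% and 3.13 points at 90% masked, where the Abcam-only difference was 6.08 points. By Fisher's exact test the SySy-called difference was 6.15 points with 1 peak per gene (adjusted p = 2.6e-04) and 6.45 points without members that have near-identical copies (adjusted p = 2.0e-07). Of the 32 masked members 7 held GGACT.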

How the data were processed

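Chromatin-associated RNA of E14 cells was fragmented, immunoprecipitated with 1 of 2 m6A antibodies and sequenced beside its input. Per the labels and the study's methods, the authors called peaks per antibody, duplicates together and input as control, with MACS2 2.1.1 (named with HOMER in the submitters' processing notes), assigned strand by the stronger enrichment, narrowed each peak around its summit and divided broad regions between summits. The aligner is not given in the sources used here. The 3 deposited BED lists have a score column, which the authors left at 0 for all peaks. Depth per library is unknown and no error between replicates could be computed.

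Peaks were placed by midpoint on GENCODE M21 annotation (mm10, GRCm38.p6), with the transcript of longest coding sequence standing for a coding gene and the longest transcript for a noncoding gene, using Python 3.11.15, numpy 2.4.6 and scipy 1.17.1. Of the peaks, 1 in Cfg2 had an odd strand mark and was read as plus. Sequence, soft-masking and a second annotation came from RefSeq. Copies were matches found with blastn 2.17.0 at 95% identity or more over 90% or more of the interval. Shares were compared by Fisher's exact test, two-sided, with Benjamini-Hochberg adjustment over 17 tests and a threshold of 0.05. Intervals are 95% Wilson intervals for shares and Newcombe intervals for differences, and cover counting error only. Scripts for placement and shares were tested on simulated data.

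Genes were named when they held 3 or more members, or 2 or more in Cfg1, or belonged to a listed group (X-inactivation, imprinted, stem cell, abundant or nuclear, small nucleolar or microRNA host, small structured). Genes beside these were chosen after their values were seen. A few items are not reported here. The members, lists and tests were all chosen with earlier results of these data known. Alternatives covered the annotation rule, gene types, 1 peak per gene, the gene with the most members, motif, window and the limits on distance from the start, exon length, 3′ end and masked share. The limits on copies, divergent starts and distances between peaks had no alternative.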

Additional observations from a re-analysis of the deposited data

How the results depend on the processing

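Of 195 values computed under other settings, 165 kept their direction and their side of the threshold. All differences below are in percentage points, first group minus second as in the report. For SySy-called members near the start, the difference no longer passed at 2.50 (long gene types only), 3.02 (any coding transcript excludes, and likewise at least 50% of the interval exonic) and 2.21 (without members inside coding genes). For SySy-called members in the last exon it no longer passed at 1.45 (1 peak per gene). The Abcam-only last exon difference passed at 25.3 (any coding transcript excludes), at an unmoved 22.9 without Kcnq1ot1, where only the adjustment changed, and at 40.7 (single-exon transcripts kept). With single-exon transcripts kept, each of their peaks counts as last exon by definition. Of the 60 Abcam-only members 32 were such peaks, so the 40.7 does not show a preference for last exons. GGACT in SySy-called minus Abcam-only members passed at 23.3 (1 peak per gene), 19.3 (without Kcnq1ot1) and 24.1 (GGAC), and members minus coding peaks passed at -13.9 (Cfg1, GGAC), -16.6 (Cfg1, GGACT or GAACT) and -18.0 (Cfg3, GGAC). Directions turned for GGACT in Cfg3 at 0.59 (all noncoding transcripts) and in Cfg2 at 2.31 (fixed window), for Abcam-only long exons at -1.86 (1 peak per gene) and -1.62 (without Kcnq1ot1), for SySy-called long exons at 1.00 (1000 nt or longer), for the Abcam-only 3′ end at 0.36 (last 10%) and for Abcam-only repeats at -0.20 (10% masked). Of these turned values none passed the threshold.

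Other alternatives were chosen after seeing the data. Without members in RefSeq messenger RNA exons, the noncoding share in Cfg1 minus Cfg3 passed at -0.82, GGACT in SySy-called minus Abcam-only at 15.3, the Abcam-only last exon at 22.6 and the SySy-called last 25% at -8.59, and Abcam-only long exons turned to -0.55. Without Gm42418 and Gm26917 the last of these was -2.01. Among transcripts of 5000 nt or less, the SySy-called last exon no longer passed at 7.97, the SySy-called last 25% passed at -9.30 and Abcam-only long exons were -5.00. The cause of these changes was not tested, beyond the smaller sets that each setting leaves.

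No paired analysis was possible because the peak lists were called on duplicates together and carry no value per library. For the same reason leaving out a replicate was not possible, and with every score at 0 neither was a stricter peak limit. Peaks of 1 gene are not independent, so counting intervals are too narrow.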
